A study of Mus musculus with 2 samples.

Results

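Osteopontin, the product of Spp1, and 8 genes of its receptors were followed in single sorted progenitors of mouse bone marrow. The 9 genes were taken by symbol from a matrix of 27998 genes: Spp1, the hyaluronan receptor gene Cd44, the integrin alpha chains Itga4, Itga5, Itga9 and Itgav, and the integrin beta chains Itgb1, Itgb3 and Itgb5. Droplet-based 3' sequencing, in which each captured transcript molecule is counted once by its tag (UMI), had been run on multipotent progenitors (MPPs), the cells from which both lymphoid and myeloid blood lineages arise. Per the labels they were sorted as lineage-negative cells positive for Sca-1, c-kit, CD34 and Flt3L, in the spelling of the labels. One sample came from C57BL/6 wild-type mice and 1 from C57BL/6 Spp1-/- mice, and both had been given thioglycollate, an irritant of the peritoneum, by intraperitoneal injection 20 hours earlier. The design asked how the progenitors differ between the genotypes, and no sample without thioglycollate was analysed here.

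Osteopontin is a secreted phosphoprotein of bone matrix, activated macrophages and T cells that also acts as a cytokine. Its Arg-Gly-Asp motif is bound by integrins with an alpha-v chain and by alpha-5 beta-1, and a neighbouring motif exposed by thrombin is bound by alpha-4 beta-1 and alpha-9 beta-1. CD44, an adhesion receptor that binds hyaluronan, is also described as an osteopontin receptor. In marrow, osteopontin made by bone-lining cells is known to restrain the stem cell pool, and alpha-4 beta-1 holds progenitors to VCAM1 on stromal cells.

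The matrix pooled both samples, and its barcodes carried the suffix 1 or 2. Neither the labels nor the files say which suffix belongs to which genotype. The cells are therefore called library 1 and library 2, ratios are given as library 2 over library 1, and they have no genotype direction. Library 1 had 3253 kept cells with a median of 2830 UMIs, and library 2 had 4570 with a median of 3836. A UMI of at least 1 of the sort markers Kit, Ly6a, Cd34 and Flt3 was present in 89.4% and 94.7% of them. The libraries shared 32 barcode sequences, and leaving those out moved no count of members past the fold reported below. Each genotype had a single library, so no value has a replicate check and no test was made; levels are UMIs per 1000000 UMIs (CPM), and all 95% intervals cover counting error only. The depth and the cell makeup of the libraries differed, and their part in any difference between libraries was not tested.

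The sequences before the annotated starts of 4 of the genes are shown, because Cd44 and Itga4 were the members with the highest levels in Dntt-expressing cells, Itgb1 encodes the partner chain of alpha-4 and was not higher there, and Spp1 encodes the ligand. They are from RefSeq on GRCm38.p6, 5' to 3' on the strand of the gene, and end at the last base before the annotated transcript. Capitals mark the letters searched on both strands: E-box CANNTG, RUNX TGTGGT, ETS AGGAAGT, GC box GGGCGG and TATA box TATAAA.
Spp1 promoter, chr5:104434861-104435110, plus strand: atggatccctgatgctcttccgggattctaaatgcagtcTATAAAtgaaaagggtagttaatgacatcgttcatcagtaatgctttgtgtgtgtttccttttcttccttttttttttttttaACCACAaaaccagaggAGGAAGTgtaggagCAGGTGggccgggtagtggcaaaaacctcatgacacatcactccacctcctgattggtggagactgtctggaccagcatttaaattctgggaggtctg
Cd44 promoter, chr2:102901670-102901915, minus strand: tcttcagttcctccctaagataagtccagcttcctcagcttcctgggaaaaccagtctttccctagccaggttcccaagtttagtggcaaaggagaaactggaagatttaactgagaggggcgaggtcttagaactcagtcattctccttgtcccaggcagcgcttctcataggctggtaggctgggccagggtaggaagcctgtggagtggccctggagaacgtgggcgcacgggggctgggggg
Itga4 promoter, chr2:79255176-79255425, plus strand: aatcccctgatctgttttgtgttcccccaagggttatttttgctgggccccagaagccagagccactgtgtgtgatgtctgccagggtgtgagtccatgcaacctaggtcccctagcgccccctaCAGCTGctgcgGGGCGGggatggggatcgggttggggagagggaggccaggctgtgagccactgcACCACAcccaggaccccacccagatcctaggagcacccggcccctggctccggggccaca
Itgb1 promoter, chr8:128685404-128685653, plus strand: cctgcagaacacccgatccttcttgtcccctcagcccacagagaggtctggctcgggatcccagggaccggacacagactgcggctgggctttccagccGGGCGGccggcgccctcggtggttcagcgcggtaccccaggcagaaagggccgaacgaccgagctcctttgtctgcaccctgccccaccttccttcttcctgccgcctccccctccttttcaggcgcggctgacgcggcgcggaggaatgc
The Spp1 sequence held the TATA letters, whose first base was 211 bases before the start, the RUNX letters on the opposite strand at 128, the ETS letters at 112 and an E-box at 98. The Itga4 sequence held an E-box at 125, a GC box at 114 and the RUNX letters on the opposite strand at 60, and that of Itgb1 held 1 GC box, at 151. Among 32851 windows of 250 bases, the E-box letters occurred in 66.2%, GC box in 32.7%, RUNX in 14%, TATA box in 12.4% and ETS in 7.7%. None of the 5 motifs was found in the 246 bases of Cd44. No matches overlapped in these 4 sequences, and a match describes letters, not a bound site. Of the 9 members, 8 had a window in the table; Itgb3 had none, and the windows of Itgav and Itga9 lay inside the annotated gene and are not printed.

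Spp1, the ligand gene, gave very few transcripts in these progenitors. It is a protein-coding gene at chr5:104435118-104441050 (GRCm38, plus strand, ENSMUSG00000029304). Library 1 held 33 Spp1 UMIs, or 3.26 CPM (2.24 to 4.58), and library 2 held 1 UMI, or 0.0533 CPM (0.00135 to 0.297). The ratio of library 2 over library 1 was 0.0164 (0.000402 to 0.0977). The labels do not say which bases the knockout allele lacks, and these counts were not used to assign a genotype.

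The Spp1 UMIs of library 1 were spread over 30 of 3253 cells (0.922%, exact binomial 0.623 to 1.31), 29 of them with 1 UMI. The remaining cell had 4 Spp1 UMIs among 1496 UMIs in all. C1qa, a complement gene of macrophages that serves here as a gene progenitors should lack, had a UMI in 0.953% of the cells of library 1 and 0.766% of those of library 2. The Spp1 share of library 1 lay no higher than that, so it is not taken as the share of cells that express Spp1. Whether the UMIs came from these cells or from free RNA was not tested. With 30 cells, the makeup of the cells with Spp1 is known only roughly. Cd34, which encodes a sialomucin of progenitors, was found in 20 of 30 (66.7%) against 67.8% of library 1, and Ly6a, the Sca-1 gene, in 18 of 30 (60%) against 54.4%. Dntt was found in 11 (36.7%, 19.9 to 56.1) against 46.8%, Mpo in 4 (13.3%) against 21.1%, Kit in 5 (16.7%) against 10.1%, and the globin gene Hbb-bt in 6 (20%, 7.71 to 38.6) against 12.4%. Of macrophage genes, the lysosomal gene Cd68 had a UMI in 4 of the 30 cells (13.3%, 3.76 to 30.7) against 9.07% of the library, while Adgre1, C1qa and Csf1r were at 0 in them. Over all kept cells the 9 genes of the macrophage list were all detected and summed to 52.1 and 46.2 CPM, and their part in the Spp1 counts was not tested.

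Receptor transcripts were about as frequent in these cells as in the library: 9 of 30 had a UMI of any of the 8 receptor genes, and 67.1% of all cells of library 1 had none. Itgb1 was seen in 4, Cd44 in 3, Itgb5 in 2, and Itga4 and Itga5 in 1 each. The interval for Cd44 (2.11% to 26.5%) includes its share in the whole library, 13.9%, and so does that for Itga4 (0.0844% to 17.2%, against 10.9%). A difference in receptor transcripts between cells with and without Spp1 was not detectable at this depth.

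Other genes around the ligand were as sparse. Of 8 relatives and proteases of osteopontin (Ibsp, Dmp1, Mepe, Dspp, Mmp3, Mmp7, Mmp9 and F2) and of 6 other ligands of these receptors (Vcam1, Fn1, Vtn, Tnc, Thbs1 and Madcam1), 0 reached 50 UMIs. Vcam1, the counter-receptor of alpha-4 beta-1, had 14 UMIs in each library. F2, the thrombin gene, had 1 and 6, and Fn1, the fibronectin gene, 1 and 4.

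Among the receptor genes, Cd44, Itga4 and Itgb1 made up most of the transcripts. Cd44 (chr2:102811141-102901665, minus strand) was at 51.2 CPM (46.9 to 55.8) in library 1 and 63.5 CPM (60.0 to 67.2) in library 2. Itga4, the alpha-4 chain (chr2:79255426-79333123, plus strand), was at 38.3 CPM (34.6 to 42.4) and 44.3 CPM (41.4 to 47.4). Itgb1, the beta-1 chain shared by many integrins (chr8:128685654-128733200, plus strand), was at 31.7 CPM (28.3 to 35.4) and 33.2 CPM (30.6 to 35.9). The order Cd44, Itga4, Itgb1 was the same in both libraries, but the intervals of Itga4 and Itgb1 overlapped in library 1. Itga4 UMIs per Itgb1 UMI over all kept cells were 1.21 (1.04 to 1.41) in library 1 and 1.34 (1.20 to 1.48) in library 2. Because 3' tags give 1 count per molecule, these levels need no correction for gene length, though capture can differ between transcripts, and the splice forms of Cd44 are not resolved.

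The other 5 receptor genes were much lower. Itgb5, the beta-5 chain that pairs with alpha-v (chr16:33829665-33949338), was at 8.70 and 8.43 CPM. Itga5, the alpha-5 chain of the fibronectin receptor (chr15:103344286-103366763), was at 4.74 and 4.11 CPM, and Itgav, the alpha-v chain (chr2:83724397-83806916), at 2.96 and 2.29 CPM. The intervals of Itga5 and Itgav overlapped in library 1 and were apart in library 2 (3.24 to 5.13 and 1.66 to 3.09).

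Itga9, the alpha-9 chain (chr9:118606690-118901003), had 8 and 20 UMIs, and Itgb3, the beta-3 chain of platelet and osteoclast integrins (chr11:104608000-104670476), had 8 and 11. They were detected in 0.246% and 0.438% of cells (Itga9) and in 0.246% and 0.241% (Itgb3), below the C1qa share, and these are not taken as shares of cells that express them. The Itgav shares, 0.922% and 0.941%, were close to it. Whether reads were assigned by strand is not stated in the labels. The antisense gene Gm2415, which overlaps the 3' end of Itga9, had 11 and 23 UMIs, as many as Itga9 itself, and Cerkl, which overlaps that of Itga4 on the other strand, had 10 and 27 against 388 and 831 of Itga4. Among the 50-base words of each member's last 300 bases, 0% occurred in another gene.

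**Figure D1:**
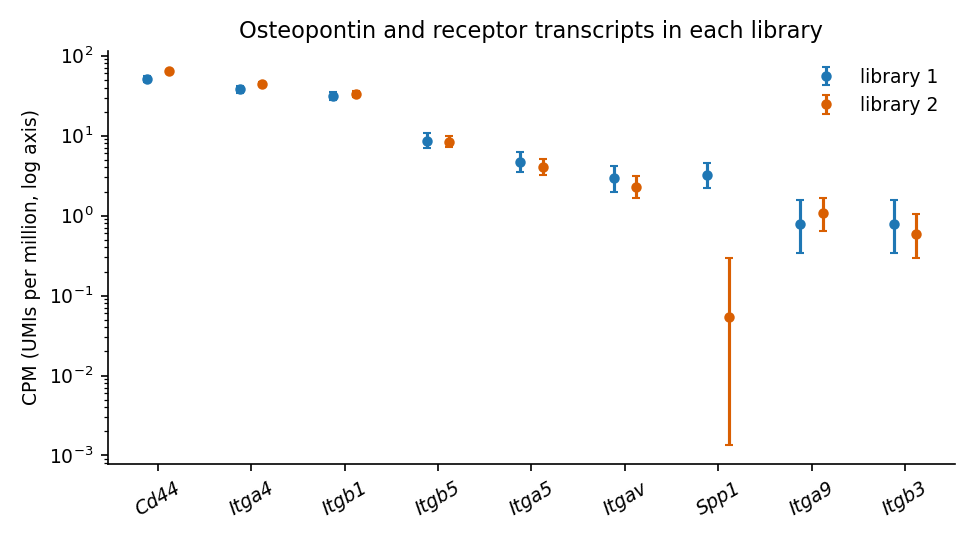
Level of the 9 genes in library 1 (blue) and library 2 (orange) in UMIs per 1000000 (CPM) on a log axis; points are summed UMIs of kept cells over all their UMIs, and bars are exact Poisson 95% intervals. Cd44, Itga4 and Itgb1 lie between 31.7 and 63.5 CPM and the other receptor genes below 9 CPM, while Spp1 is at 3.26 CPM in library 1 and 0.0533 CPM in library 2.

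Between the libraries, no receptor gene with enough UMIs differed by 1.5-fold. The 6 members with at least 50 UMIs in both libraries together were Cd44, Itga4, Itgb1, Itgb5, Itga5 and Itgav. Past 1.5-fold were 0 of 6 upward, where 4.81% of 10101 genes were, and 0 of 6 downward, where 2.46% were. The ratio was 1.24 for Cd44 (1.12 to 1.38), 1.16 for Itga4 (1.02 to 1.31) and 1.05 for Itgb1 (0.912 to 1.20). The median log2 ratio of the 6 was 0.0094, and that of all 10101 genes 0.11, so the excess of Cd44 over the general shift was smaller than its own log2 ratio of 0.31. It was 0.866 for Itga5 (0.596 to 1.27), 0.969 for Itgb5 (0.742 to 1.27) and 0.773 for Itgav (0.474 to 1.28), with intervals that include 1.

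More cells of library 2, the deeper library, showed a receptor transcript. Cd44 had a UMI in 13.9% (12.8 to 15.2) and 21.6% (20.5 to 22.9) of cells, at medians of 2830 and 3836 UMIs. To compare shares at equal depth, 2000 UMIs were drawn from each of the 2444 and 4016 cells that had as many; 809 and 554 cells had fewer and were left out. The Cd44 shares were then 8.39% (7.32 to 9.56) and 11.95% (10.96 to 13.0). For Itga4, 10.9% and 15.4% became 7.45% (6.44 to 8.56) and 8.14% (7.31 to 9.03). For Itgb1, 9.13% and 12.2% became 6.34% and 5.73%, with overlapping intervals (5.41 to 7.38 and 5.03 to 6.49). In this 1 draw at equal depth, the intervals of the 2 libraries were thus apart for Cd44 and overlapped for Itga4 and Itgb1. These intervals do not cover the draw itself. In the drawn UMIs the log2 ratio of Cd44, library 2 over library 1, was 0.516, against 0.311 with all UMIs. No cell class known to lack these 3 genes was in the sort, so their background from free RNA was not measured.

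To ask which progenitors carried each receptor, the 6460 thinned cells were divided into 7 classes that do not overlap. Cells with at least 10 UMIs of 4 MHC class II pathway genes formed the MHC class II class, and those with at least 10 UMIs of 24 mitosis genes the mitotic class. Of the rest, at least 4 UMIs of Dntt, the DNA polymerase that adds bases at antigen-receptor joints and marks lymphoid priming, set the Dntt class. At least 2 UMIs of Mpo and Ctsg, granule genes of the granulocyte and monocyte lineage, set the Mpo/Ctsg class. At least 1 UMI of Hlf, a transcription factor gene of stem cells, set the Hlf class. Cells in more than 1 of these 3 gates were kept apart, and cells in none are called ungated.

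These classes are ranges of a count and not cell types: 214 cells lay at the Dntt threshold and 296 at 1 UMI below it, and for Hlf 490 cells had the single UMI and 5918 had none. In libraries 1 and 2 there were 1594 and 2274 ungated cells, 188 and 372 Dntt, 192 and 253 Mpo/Ctsg, 178 and 233 Hlf and 235 and 835 mitotic cells. The MHC class II class had 34 and 6 cells, too few for a comparison, and 23 and 43 cells were in more than 1 gate. Median UMIs per cell were 3183 and 3829.5 in ungated cells, 2693.5 and 3362.5 in Dntt cells, and 4004 and 5234 in mitotic cells.

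Itga4 was the receptor gene that stood highest over the ungated cells in Dntt cells. It was at 65.1 CPM (45.1 to 91.0) in the Dntt cells of library 1 and 62.8 CPM (49.97 to 78.0) in those of library 2, against 32.3 (27.8 to 37.4) and 37.8 (33.9 to 41.9) in ungated cells. The ratios were 2.01 (1.35 to 2.92) and 1.66 (1.29 to 2.12). Of the 6 members with at least 50 UMIs in these cells, Itga4 was the 1 that was at least 1.5-fold higher in Dntt cells in both libraries; of all 9932 genes so measured 2.85% were. With cells thinned to 3000 UMIs in place of 2000, the ratio in library 1 was 1.47 and the count was 0. At equal depth, 10.6% (6.62 to 16.0) and 9.68% (6.87 to 13.1) of Dntt cells had an Itga4 UMI, against 5.90% and 7.04% of ungated cells.

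Cd44 was also higher in Dntt cells, by less. Its level there was 86.2 CPM (62.8 to 115.3) and 82.7 CPM (67.9 to 99.9), against 51.5 and 58.1 CPM in ungated cells. The ratios of 1.67 (1.19 to 2.30) and 1.42 (1.15 to 1.75) passed 1.5-fold in library 1 and not in library 2. At equal depth the shares of Dntt cells with a Cd44 UMI were 12.8% and 15.9%, against 8.28% and 10.3% of ungated cells.

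Itgb1, which encodes the chain that completes the alpha-4 receptor, did not share this pattern. In Dntt cells it was at 26.8 CPM (14.7 to 45.0) and 24.5 CPM (16.8 to 34.6), and in ungated cells at 33.8 and 34.1 CPM. The ratios of 0.794 (0.426 to 1.36) and 0.718 (0.483 to 1.03) lay below 1 with intervals that include it. Itgb5, at 6 and 5 UMIs, gave 1.19 (0.418 to 2.76) and 0.455 (0.144 to 1.11), on opposite sides of 1.

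Itga5 had few UMIs in Dntt cells, too few to place it below the ungated level. It had 0 UMIs in those of library 1 and 2 in those of library 2 (1.53 CPM, 0.186 to 5.54), against 26 and 48 in ungated cells (4.65 and 5.12 CPM). For library 1, the upper Poisson limit of 7.06 CPM lies above the ungated level, so a difference was not detectable at this depth, and for library 2 the ratio was 0.299 (0.0352 to 1.14). By point values Itga5 was the 1 of 6 members at or below 1/1.5 in both libraries, where 6.42% of the 9932 genes were. With wider gates, which take in up to 25% of cells, its ratio in library 1 was 1.22. Itgav had 1 and 3 UMIs in Dntt cells, and Itga9 and Itgb3 had 0 in both libraries.

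Lists of marker genes of other cells also differed between Dntt and ungated cells. The 6 erythroid genes, mostly Hbb-bt, summed to 9.57 and 13.8 CPM in Dntt cells of libraries 1 and 2 against 91.3 and 53.6 CPM in ungated cells, with 2 of the 6 detected in the Dntt cells of each library and 5 of 6 in ungated cells. The 4 endothelial genes, mostly Pecam1, an adhesion gene that blood cells also express, summed to 45.9 and 49.8 CPM against 30.9 and 22.9 CPM; over all kept cells Tek was at 0 in library 1, and Cdh5 had 1 UMI in each library. The 5 mast cell and basophil genes summed to 3.83 and 4.60 CPM in Dntt cells against 17.5 and 12.2 CPM, with 1 and 2 of them detected against 4 and 3. The part of these transcripts in the Itga4 and Cd44 levels was not tested.

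**Figure D2:**
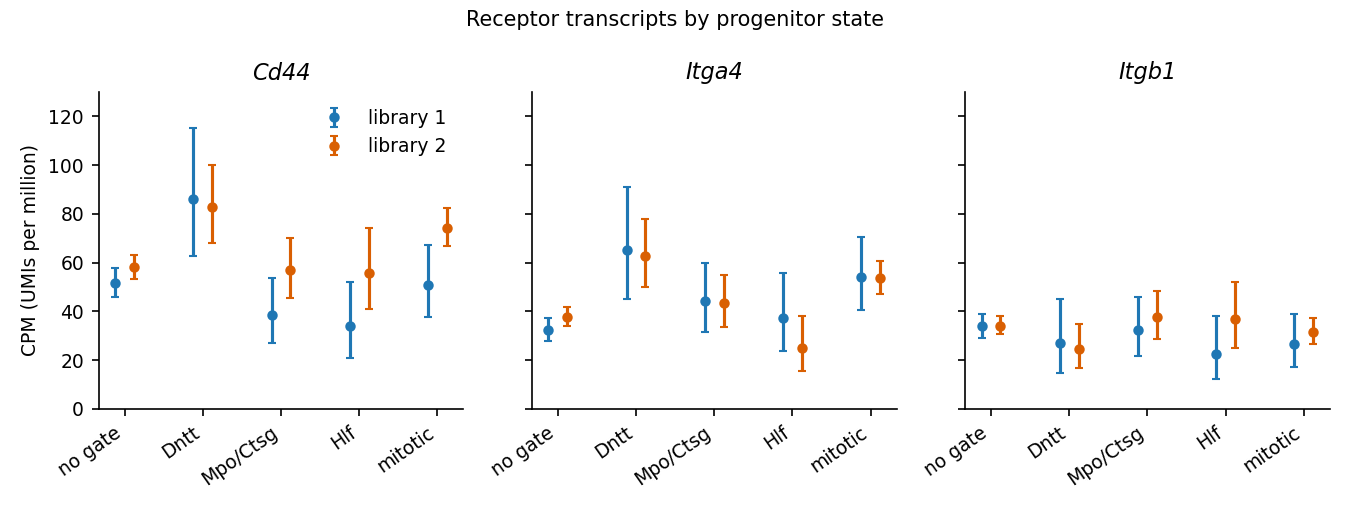
Level of Cd44, Itga4 and Itgb1 in UMIs per 1000000 (CPM) in 5 classes of cells, for library 1 (blue) and library 2 (orange), with exact Poisson 95% intervals. Itga4 is at 65.1 and 62.8 CPM in Dntt cells against 32.3 and 37.8 CPM in ungated ones (no gate), Cd44 has its highest point value in Dntt cells in both libraries, and Itgb1 lies between 22.6 and 37.5 CPM throughout.

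Along the Dntt count itself, the levels of Cd44 and Itga4 were higher in the upper bins. All thinned cells were divided into those with 0, 1, 2 to 3, 4 to 7 and 8 or more Dntt UMIs per 2000. In library 1, Cd44 was at 44.1, 56.0, 58.3, 70.6 and 100.7 CPM in these bins, and in library 2 at 59.4, 57.7, 73.5, 86.2 and 84.4 CPM. Itga4 was at 34.1, 40.4, 43.8, 63.0 and 59.2 CPM in library 1 and at 38.7, 40.3, 55.5, 55.9 and 94.3 CPM in library 2. The intervals of the lowest and the highest bin were apart for Cd44 in library 1 (38.8 to 49.9 against 58.7 to 161.3) and for Itga4 in library 2 (35.04 to 42.6 against 69.5 to 125.0). They overlapped for Cd44 in library 2 (54.8 to 64.2 and 61.1 to 113.7) and for Itga4 in library 1 (29.4 to 39.2 and 28.4 to 109.0). The bin of 4 to 7 UMIs was apart from the lowest bin for Itga4 in both libraries (43.4 to 88.5 and 44.4 to 69.5). For Cd44 that bin was apart in library 2 (71.8 to 102.8) and overlapped in library 1 (49.7 to 97.3). Overlap of separate intervals does not show that levels are equal, and no ratio between bins was computed.

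Itgb1 went the other way or stayed level. It was at 32.7, 33.0, 28.1, 26.7 and 5.92 CPM in library 1, where the last bin had 65 cells and 1 Itgb1 UMI, and at 33.8, 40.3, 27.5, 20.0 and 29.5 CPM in library 2. Its intervals in the lowest and the highest bin overlapped in both libraries (28.1 to 37.7 and 0.150 to 33.0, and 30.4 to 37.5 and 16.5 to 48.6). At 4 to 7 Dntt UMIs its interval overlapped that of the lowest bin in library 1 (14.6 to 44.8). In library 2 it lay below that of the lowest bin (13.4 to 28.7).

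**Figure D3:**
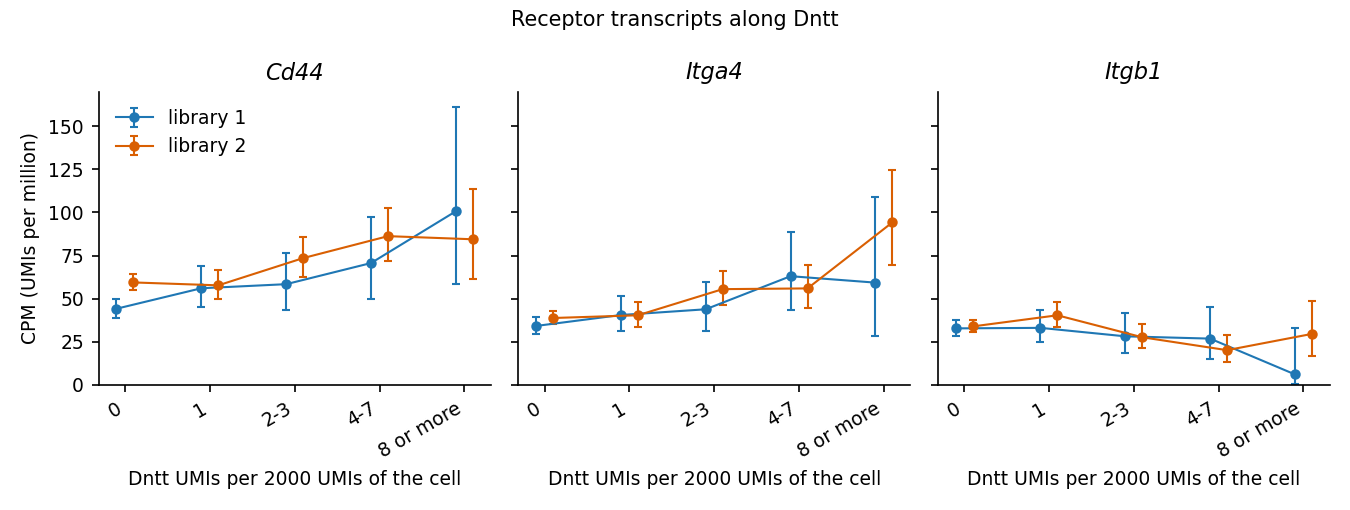
Level of Cd44, Itga4 and Itgb1 in UMIs per 1000000 (CPM) by the number of Dntt UMIs among 2000 UMIs of a cell, for library 1 (blue) and library 2 (orange), with exact Poisson 95% intervals; lines join the bins of 1 library. From 0 to 8 or more Dntt UMIs, Cd44 goes from 44.1 to 100.7 and from 59.4 to 84.4 CPM, Itga4 from 34.1 to 59.2 and from 38.7 to 94.3 CPM, and Itgb1 from 32.7 to 5.92 and from 33.8 to 29.5 CPM.

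Mitotic cells also had more Itga4, near the 1.5-fold threshold. Its level was 53.9 CPM (40.4 to 70.5) and 53.6 CPM (47.2 to 60.8), with ratios to ungated cells of 1.67 (1.20 to 2.27) and 1.42 (1.20 to 1.68), so it passed 1.5-fold in library 1 alone. Cd44 was at 50.8 and 74.3 CPM, with ratios of 0.988 (0.716 to 1.34) and 1.28 (1.11 to 1.47). Itgb1 was at 26.4 and 31.5 CPM, with intervals of the ratio that include 1 (0.498 to 1.18 and 0.753 to 1.13). Of the 6 measured members, 0 were past 1.5-fold upward in both libraries, where 3.02% of genes were, and 0 downward, where 4.39% were. Over bins of the summed mitosis genes, Itga4 stayed between 34.1 and 42.3 CPM in every bin below 10 UMIs and was at 52.8 and 53.7 CPM at 10 to 19.

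In the myeloid-primed and the Hlf classes no member passed the fold in both libraries. In Mpo/Ctsg cells 0 of 6 were higher and 0 lower, with 2.15% and 5.77% of all genes past the fold, and in Hlf cells 0 and 0, with 2.64% and 3.14%. In Mpo/Ctsg cells Itga4 was at 44.0 and 43.3 CPM, Cd44 at 38.7 and 56.8, and Itgb1 at 32.2 and 37.5 CPM. All 6 of these ratios to ungated cells, from 0.751 for Cd44 in library 1 to 1.36 for Itga4 in library 1, had intervals that include 1. Transcripts of the neutrophil list (S100a8, S100a9, Ltf, Camp, Ngp and Retnlg) summed to 118.2 and 325.6 CPM in Mpo/Ctsg cells against 7.68 and 4.69 CPM in ungated cells; their part in the receptor levels of that class was not tested.

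In Hlf cells no member could be placed above or below the ungated level. Itga4 was at 37.2 CPM in library 1 and 24.9 CPM in library 2, with ratios of 1.15 (0.711 to 1.78) and 0.660 (0.403 to 1.02). Cd44 was at 34.0 CPM with a ratio of 0.660 (0.402 to 1.03) in library 1 and 55.7 CPM with 0.959 (0.696 to 1.29) in library 2. Itgb1 was at 22.6 and 36.8 CPM. These levels rest on 14 to 47 UMIs each, and all 6 intervals of the ratio include 1.

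In MHC class II cells, Cd44 and Itga4 had 7 UMIs each in library 1, or 46.7 CPM (18.8 to 96.2), and 2 and 0 in library 2. The 40 cells of this class are too few to place either gene above or below the ungated level. In cells of more than 1 gate, Cd44 had 0 UMIs in library 1 (upper limit of the ratio 0.850) and 7 in library 2 (0.663, 0.265 to 1.37). Itga4 had 2 and 16 UMIs there, with ratios of 0.729 (0.0876 to 2.67) and 2.33 (1.32 to 3.84). The Dntt class holds cells of that gate alone, so its Cd44 level does not cover these cells.

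The balance of the chains of alpha-4 beta-1 differed between the classes. Itga4 UMIs per Itgb1 UMI were 0.958 (0.777 to 1.18) and 1.11 (0.948 to 1.29) in ungated cells. In Dntt cells there were 34 Itga4 UMIs to 14 of Itgb1 in library 1 and 82 to 32 in library 2, which is 2.43 (1.27 to 4.90) and 2.56 (1.68 to 3.99). In mitotic cells the ratio was 2.04 (1.25 to 3.396) and 1.70 (1.38 to 2.11). The intervals of Dntt and of mitotic cells lay above those of the ungated cells in both libraries, and those of Mpo/Ctsg (1.37 and 1.16) and Hlf cells (1.64 and 0.677) overlapped them. With cells thinned to 3000 UMIs, the Dntt value of library 1 was 1.22.

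**Figure D4:**
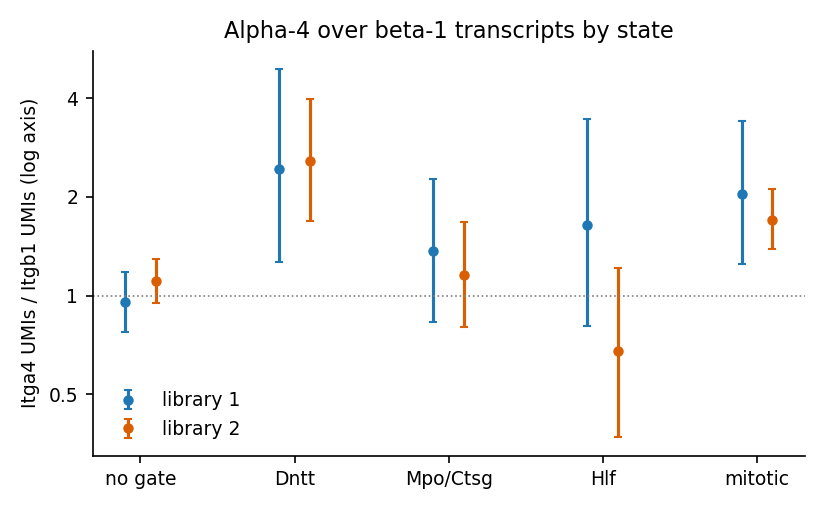
Itga4 UMIs divided by Itgb1 UMIs (log axis) in 5 classes of cells, for library 1 (blue) and library 2 (orange), with exact conditional Poisson 95% intervals; the dotted line marks equal counts. Dntt cells are at 2.43 and 2.56 and mitotic cells at 2.04 and 1.70, against 0.958 and 1.11 in ungated cells (no gate).

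Within single cells, the chains that form a receptor were found together about as often as the product of their separate shares gives. After thinning, Itga4 was found in 182 and 327 cells and Itgb1 in 155 and 230. Both were found in 11 cells of library 1 (5.49 to 19.7), where the product gives 11.5, and in 16 cells of library 2 (9.15 to 26.0), where it gives 18.7. Of cells with Itga4, 6.04% and 4.89% thus showed Itgb1, which reflects how few transcripts are captured and not how many cells hold both chains.

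The other chain pairs were too rare to read. Itga5 with Itgb1 was found in 0 and 3 cells (products 0.888 and 1.78), Itgav with Itgb1 in 1 and 1 (1.08 and 1.20), and Itgav with Itgb5 in 0 and 1 (0.285 and 0.329). Itga9 with Itgb1 and Itgav with Itgb3 were found together in 0 cells of either library. A count of 0 allows up to 3.69 cells.

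CD44 and integrin transcripts likewise showed no more overlap than counting error allows. Cd44 and Itga4 were found together in 15 cells of library 1 (8.40 to 24.7, product 15.3) and 49 of library 2 (36.3 to 64.8, product 39.1). Cd44 and Itgb1 shared 12 cells (6.20 to 20.96, product 13.0) and 32 cells (21.9 to 45.2, product 27.5), and Cd44 and Itgav 2 and 3 cells. For Itga4 with Itgb1, Cd44 with Itga4 and Cd44 with Itgb1, the interval included the product in both libraries. The intervals of the other pairs included it too, but their products were at most 2.51 cells. A count of 0 already allows up to 3.69 cells, so those intervals could not lie below the product and tell little.

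**Figure D5:**
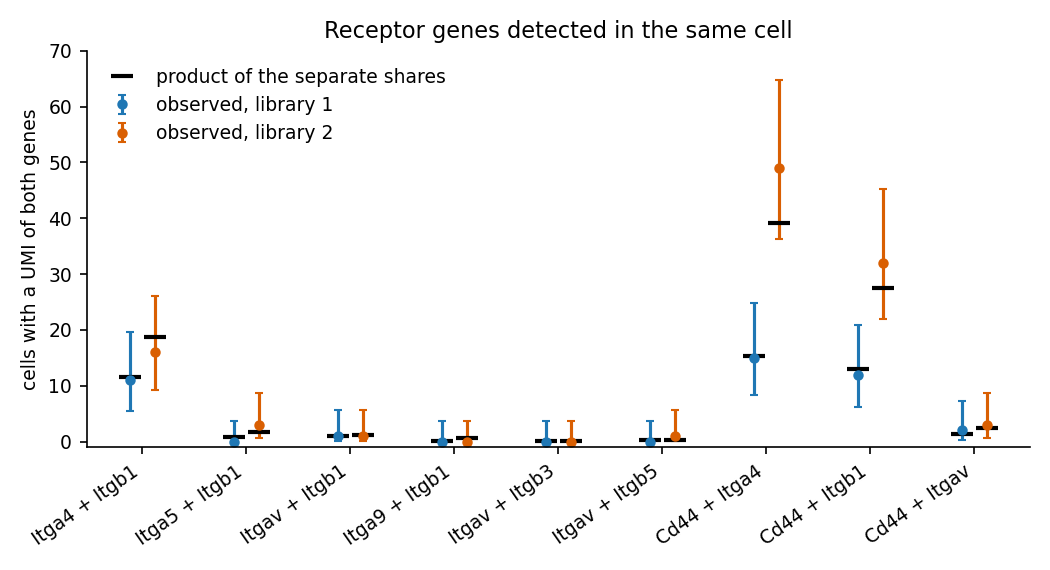
Number of thinned cells (2000 UMIs each) with a UMI of both genes of a pair, for library 1 (blue) and library 2 (orange), with exact Poisson 95% intervals; black bars mark the product of the separate shares times the number of cells. Itga4 with Itgb1 is at 11 and 16 cells with products of 11.5 and 18.7, and Cd44 with Itga4 at 15 and 49 with products of 15.3 and 39.1.

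Most cells showed none of the 8 receptor genes at this depth. After thinning, 76.6% and 74.2% had no receptor UMI, 21.4% and 22.7% had 1 of the genes, and 1.96% and 3.04% had 2, for which the product of the shares gives 2.10% and 2.61%. With all UMIs, 67.1% and 55.7% had none. In thinned cells the variance of the counts over their mean was between 1.03 and 1.07 for Cd44, Itga4 and Itgb1, where pure counting gives 1. With so few UMIs per cell this value stays near 1 even where cells differ in level. It therefore does not show that the cells are alike.

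The difference between the libraries in Cd44 was also read within classes. Library 2 over library 1 gave 1.13 (0.977 to 1.31) in ungated cells, 0.960 (0.672 to 1.39) in Dntt cells and 1.46 (1.08 to 2.01) in mitotic cells. For Itga4 the values were 1.17 (0.973 to 1.40), 0.965 (0.640 to 1.49) and 0.995 (0.737 to 1.37). Mitotic cells were 9.62% of the thinned cells of library 1 and 20.8% of those of library 2, and their part in the difference was not tested. The Cd44 ratios in Mpo/Ctsg cells, 1.47 (0.987 to 2.23), and in Hlf cells, 1.64 (0.962 to 2.89), were as large as in mitotic cells, with intervals that include 1. The Cd44 difference was therefore not shown to be limited to any class, and differences between classes in this ratio were not tested.

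Genes with the most similar pattern were taken by Pearson correlation of log2(CPM + 1) over 10 points, the 5 classes with at least 50 cells in each of the libraries, among 7281 genes with at least 200 UMIs. The classes of 1 library share its depth and preparation, so these values are a description. The genes named are the highest of 7281 over only 10 points, and how high r reaches without any relation was not tested. For Cd44 these were Rac2, a small GTPase gene of blood cells (r = 0.949), Ankrd16 (0.946) and Carkd (0.938). Rac2 was at 763.9 and 783.8 CPM in Dntt cells against 591.5 and 644.1 in ungated cells. For Itga4 they were Tle3, a Groucho-family corepressor gene (0.942), 4833445I07Rik (0.922) and Mob1b (0.920), and Tle3 was at 28.7 and 25.3 CPM in Dntt cells against 17.5 and 16.1. For Itgb1 they were Peo1, Tomm70a and Htra2 (0.952, 0.934 and 0.930), and for Itgb5 Acsl3, Paxbp1 and Mat2a (0.871, 0.870 and 0.867). Among the members themselves, Cd44 and Itga4 had r = 0.55, and Itga4 and Itgb1 r = -0.54.

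Of 19 other listed integrin chains 6 were measured, and in Dntt cells 0 of the 6 were past 1.5-fold higher in both libraries (2.85% of all genes) and 2 were lower (6.42% of all genes). Itga6, the alpha-6 chain of laminin receptors, had 0 UMIs in the Dntt cells of library 1 and 11 in those of library 2 (8.43 CPM), against 20.0 and 15.7 CPM in ungated cells. Its ratios were 0 (upper limit 0.359) and 0.538 (0.263 to 0.990), so both intervals lay below 1. Itga2b, the platelet alpha-IIb chain, had 0 and 2 UMIs there against 16 and 41. Itgb7, the other partner of alpha-4, had 1 and 11 UMIs in Dntt cells, with ratios of 0.255 (0.00631 to 1.501) and 0.798 (0.386 to 1.49), and was at 7.71 and 10.3 CPM in the libraries as a whole. Itgal, the alpha-L chain of LFA-1, had ratios above 1 in both libraries, 2.11 (1.13 to 3.71) and 1.27 (0.815 to 1.90), and passed 1.5-fold in library 1 alone.

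Of 24 listed integrin adaptors and activators 16 were measured, with 0 higher in Dntt cells (2.85% of all genes) and 1 lower (6.42% of all genes), so their share was near that of all genes. The lower one was Rap1b, a GTPase gene that acts in integrin activation, with ratios of 0.582 (0.185 to 1.41) and 0.579 (0.292 to 1.04). Cd47, the integrin-associated protein gene, had the most UMIs of them and ratios of 1.098 (0.925 to 1.30) and 1.32 (1.20 to 1.45) in Dntt cells. Tln1, the talin gene, had 0.850 (0.671 to 1.06) and 0.978 (0.851 to 1.12). Vcl, the vinculin gene, was the 1 adaptor past the fold elsewhere, where 4.39% of all genes were lower in mitotic cells and 2.46% lower in library 2. It had 2 and 12 UMIs in mitotic cells and 64 and 75 UMIs in the libraries as a whole (ratio 0.632, 0.447 to 0.897).

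Of 13 partners of CD44 and hyaluronan genes, 7 were measured in the classes. Hmmr, a hyaluronan receptor gene that also acts at the mitotic spindle, was higher in mitotic cells, at 127.1 and 136.2 CPM against 16.4 and 25.8 in ungated cells, and in Mpo/Ctsg cells, at 26.9 and 40.7 CPM; it was the 1 of 7 past the fold upward in each, where 3.02% and 2.15% of all genes were. It was also the 1 of 8 measured in the libraries that was past the fold upward, where 4.81% of all genes were (26.6 and 52.7 CPM, ratio 1.98, 1.73 to 2.28). Mitotic cells were 9.62% of the thinned cells of library 1 and 20.8% of those of library 2. Their part in the Hmmr ratio was not tested. Cd74, the invariant chain gene whose protein pairs with CD44 as a receptor, was the 1 of 8 past the fold downward, where 2.46% were (374.3 and 117.9 CPM, ratio 0.315, 0.299 to 0.332), and it is among the genes that define the MHC class II class. Ezr, which encodes the ezrin linker of CD44 to actin, had ratios of 1.26 (0.910 to 1.71) and 1.38 (1.15 to 1.65) in Dntt cells. Nf2, the merlin gene, was the 1 of 7 past the fold downward there, where 6.42% of all genes were, at 0.446 (0.0900 to 1.36) and 0.616 (0.274 to 1.21).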

How the data were processed

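The authors deposited 1 matrix of UMI counts for both samples, made with Cell Ranger 1.1 on mm10 per the submitters' processing notes; for read filters, strand use and any equalising of depth, the sources used here give nothing. The other deposited columns hold gene identifiers and barcodes, and 0 columns belonged to samples outside the series. From these counts, barcodes with at least 500 genes and under 10% mitochondrial UMIs were kept (10118499 and 18750468 UMIs). UMIs were summed per library or class and scaled to CPM. Levels carry exact Poisson, shares exact binomial (Clopper-Pearson) and ratios exact conditional Poisson 95% intervals, with no test. Cells with at least 2000 UMIs were thinned to 2000. Past the fold means 1.5-fold, in both libraries for classes, among genes with at least 50 UMIs. Gates took the smallest UMI number that at most 15% of cells reach. No doublet caller was run; cells with the most UMIs were left out as an alternative. Named genes were all 9 members, the 3 genes most correlated with each, and of each list those with the most UMIs or past the fold. Members and lists were chosen with earlier results of these data known. Positions are from GENCODE M21, in which 27645 of 27998 identifiers were found. Python 3.11.15, numpy 2.4.6, scipy 1.17.1 and pandas 2.3.3 were used, and the code was tested on simulated data. Of 11 lists of marker genes, those whose values stand beside a result are given, and 1 is not reported here.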

Additional observations from a re-analysis of the deposited data

How the results depend on the processing

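Between the libraries, 0 members were past 1.5-fold in either direction under the 10 alternatives, of which the minimum of 200 UMIs left 4 members (Cd44, Itga4, Itgb1 and Itgb5) in place of 6. On cells thinned to 2000 UMIs the log2 ratio of Cd44 was 0.52 and that of Itgb1 -0.14. The count of members higher in Dntt cells was 0 with cells thinned to 3000 UMIs and 1 under the other 11 alternatives, each time Itga4. The count lower in Dntt cells was 2 with gates at 10% of cells, with a second thinning draw and with the filter at 1000 genes (Itga5 and Itgav), and 0 with gates at 25% of cells, with cells thinned to 1500 UMIs and with a minimum of 200 UMIs; at 3000 UMIs it was 1, but Itgb5 in place of Itga5. The Itga5 ratio in the Dntt cells of library 1 reversed to 1.22 with gates at 25% and to 1.12 at 3000 UMIs, and the cause was not tested. With gates at 25% or a mean over cells, 1 member, Itga4, was higher in mitotic cells. In Hlf cells 1 member was lower at 3000 UMIs and in the second draw (Itgav), and with the Hlf, Mecom, Procr and Mllt3 gate and the mean over cells (Itga5); at 3000 UMIs 1 was lower in mitotic cells (Itgav). Thinned to 3000 UMIs, the ratio of Itga4 over Itgb1 UMIs in the Dntt cells of library 1 moved from 2.43 to 1.22. Cells with both Itga4 and Itgb1 over the product ranged from 0.698 to 1.20 in library 1 and from 0.854 to 1.27 in library 2, while Cd44 with Itga4 in library 2 was 1.25 and, at 1500 UMIs, 0.593. The alternatives without the shared barcodes, and all those for Itga4 over Itgb1, were chosen after seeing the data. No paired analysis was possible because each genotype had 1 library and no test was made. Depth limits the members below 50 UMIs (Spp1, Itga9 and Itgb3) and every class value of Itga5, Itgb5 and Itgav, which rest on few UMIs outside the ungated cells.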
